A study of Mus musculus with 18 samples.

Results

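Cyclins and cyclin-dependent kinases (CDKs) were followed in polysome gradients of mouse embryonic stem cells (ESCs) with and without microRNAs. The 10 genes described were taken by symbol, with earlier results of these data known. They are the D-type cyclins Ccnd1, Ccnd2 and Ccnd3, the E-type cyclins Ccne1 and Ccne2, the A-type cyclin Ccna2, the B-type cyclin Ccnb1, and the kinases Cdk2, Cdk4 and Cdk6. Each was found as 1 row among 51467 genes in the count table, and all 10 were among the 12851 genes tested. None depended on the group in which it was high to pass the filter on low counts, since each reached 3 CPM (counts rescaled to a common library total) in all 18 libraries.

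The wild-type (WT) cells were the V6.5 ESC line, and the Dgcr8 knockout (KO) cells an ESC line that lacks Dgcr8, a gene whose product is needed to process microRNA precursors. Each genotype was 1 line, so the effect of the deletion cannot be told apart from other differences between the lines. Both genotypes were grown with 15% serum, LIF and 2i, received 100 ug/ml cycloheximide for 2 min before lysis, and their lysates were spun through 10 to 50% sucrose. Monosomes, where 1 ribosome sits on the mRNA, low polysomes with 2 to 4 ribosomes and high polysomes with 4 or more were collected from each gradient. There were 3 gradients per genotype and therefore 3 libraries in each of the 6 groups. No label describes the gradients of a genotype as separate cultures, so p-values measure the spread between gradients, which may be technical. Reads were taken from the 3′ ends of transcripts, and a level in CPM is a gene's share of the reads of its own library. More of an mRNA per cell and more cells holding it cannot be told apart in these bulk fractions, and neither can a change in the total mRNA of a fraction be seen.

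A cyclin is the regulatory subunit that a CDK needs to be active. D-type cyclins with CDK4 or CDK6 phosphorylate the retinoblastoma (RB) proteins in G1, which releases E2F transcription factors, and E-type and A-type cyclins with CDK2 then drive entry into and passage through S phase. Cyclin B1 with CDK1 drives mitosis. ESCs are known for a short G1 phase and high cyclin E and CDK2 activity, and the ESCC microRNAs, the ESC-enriched family that includes miR-294 and the miR-302 cluster, are named for their part in the ESC cell cycle.

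The mature microRNAs below are shown because their seeds (bases 2 to 8, in capitals) define the matches that were looked for in the 3′ UTRs of the 10 genes. miR-294-3p and miR-302d-3p share the ESCC seed, miR-17-5p has that seed shifted by a base, and miR-16-5p and let-7g-5p carry unrelated seeds. The sequences are from RefSeq (GRCm38.p6).
miR-294-3p: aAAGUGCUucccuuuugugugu
miR-302d-3p: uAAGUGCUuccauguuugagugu
miR-17-5p: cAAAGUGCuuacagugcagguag
miR-16-5p: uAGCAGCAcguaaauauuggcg
let-7g-5p: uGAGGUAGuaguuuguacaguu

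Sites were the exact complements of these 7 bases in the sense strand of the 3′ UTR of 1 transcript per gene, AGCACTT for the ESCC seed, GCACTTT for the miR-17 seed, TGCTGCT for the miR-15/16 seed and CTACCTC for let-7. The ESCC and miR-17 motifs overlap by 6 bases, so 1 stretch can hold both. An ESCC match was found in 4 of the 10 genes, Ccnd1, Ccnd2, Cdk4 and Cdk6, compared with 16.1% of 11763 protein-coding genes tested. The stretches below are a selection, with the match in capitals. They show these ESCC matches, except that of Cdk4 at position 824, and the miR-15/16 matches of Ccnd2, Ccnd3 and Ccne1. Ccnd1 and Cdk6 also hold 1 and 3 miR-15/16 matches, which are not shown.
Ccnd1 ESCC match, chr7:144931672-144931695, minus strand: attccatttcaaAGCACTTttggt
Ccnd2 ESCC match, chr6:127129336-127129359, minus strand: ttccattagaaaAGCACTTtgaaa
Cdk6 ESCC match, chr5:3521840-3521863, plus strand: ctctcaaccaccAGCACTTctaat
Cdk6 ESCC match, chr5:3525319-3525342, plus strand: tcccgcacattcAGCACTTatgga
Cdk6 ESCC match, chr5:3528421-3528444, plus strand: cataatagaaagAGCACTTagcag
Cdk4 ESCC match, chr10:127067550-127067573, plus strand: aaatgcttgccgAGCACTTgtgag
Ccnd2 miR-15/16 match, chr6:127128537-127128560, minus strand: tgtttcacggtgTGCTGCTatttt
Ccnd3 miR-15/16 match, chr17:47599282-47599305, plus strand: tgttgctttgctTGCTGCTtagct
Ccne1 miR-15/16 match, chr7:38098019-38098042, minus strand: ttattttgtaagTGCTGCTatgtc

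All of these lie in 3′ UTRs (GRCm38, GENCODE M21). In Ccnd1 and Ccnd2 the base after the ESCC match is a T, so the same stretch holds a miR-17 match. Matches were more frequent in longer 3′ UTRs. Of genes in the top decile of 3′ UTR length, where Ccnd2 (5173 nt) and Cdk6 (10217 nt) fall, 48.8% have an ESCC match, against 31.7% in the decile of Ccnd1 (2676 nt) and 11.1% in that of Cdk4 (899 nt). A second ESCC match of Cdk4, at position 824 of its 3′ UTR, lies in sequence that it shares with other annotated genes. miR-15/16 matches were found in 5 of the 10 genes, Ccnd1, Ccnd2, Ccnd3, Ccne1 and Cdk6, against 23.1% of protein-coding genes tested. miR-17 matches were found in 3, Ccnd1, Ccnd2 and Cdk2, against 13.8%, and a let-7 match in Cdk4, against 9.69%. Ccne2, Ccna2 and Ccnb1 held none of the 4 motifs in the 3′ UTR searched. A match is a description of the sequence and was not tested as a site.

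Library totals were 1151649 to 4984833 counts, lowest in monosomes. Dgcr8 kept 38 to 183 reads in every KO library. Its level was 27.7 ± 1.76 CPM in WT and 15.4 ± 7.17 CPM in KO high polysomes (SD, n = 3), a log2 change of -1.01 (SE 0.23, adjusted p = 0.000276). This change no longer passed the fold threshold without WT replicate 2 (-0.999), WT replicate 3 (-0.97) or KO replicate 3 (-0.59). Nor did it pass with edgeR (-0.88), DESeq2 (-0.87), limma-trend (-0.91), all genes with a count (-0.99) or a replicate block (-0.98). Where the deletion lies relative to the 3′ reads is not given in the sources used here, so these counts do not check the genotype. All 9 pluripotency markers examined were read in every group (3147 to 6055 CPM summed), whereas the 8 fibroblast markers summed to 3.69 to 25.5 CPM and the 7 primitive endoderm markers to 2.05 to 11.5 CPM. The pluripotency sum was not alike in the genotypes, at 5511 to 6055 CPM in WT and 3147 to 3841 CPM in KO high polysomes. In monosomes it was 3339 to 3471 CPM in WT and 3558 to 4018 CPM in KO cells, and in low polysomes the genotypes overlapped. The KO low polysome library of replicate 1 stood apart. In it, 20 genes with 40 or more reads exceeded both other libraries of the group by over 4 times, against 2 in the KO high polysome library of replicate 1 and 0 in each of the other 16. The embryonic globin Hbb-y, the clearest of these genes, had 1382 reads there and 26 and 27 in the other KO low polysome libraries, and the fibroblast markers together had 83, against 13 and 30. Of the 10 genes, Ccnd2 was also high in this library, and its low polysome values are therefore given with and without it.

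**Figure D1:**
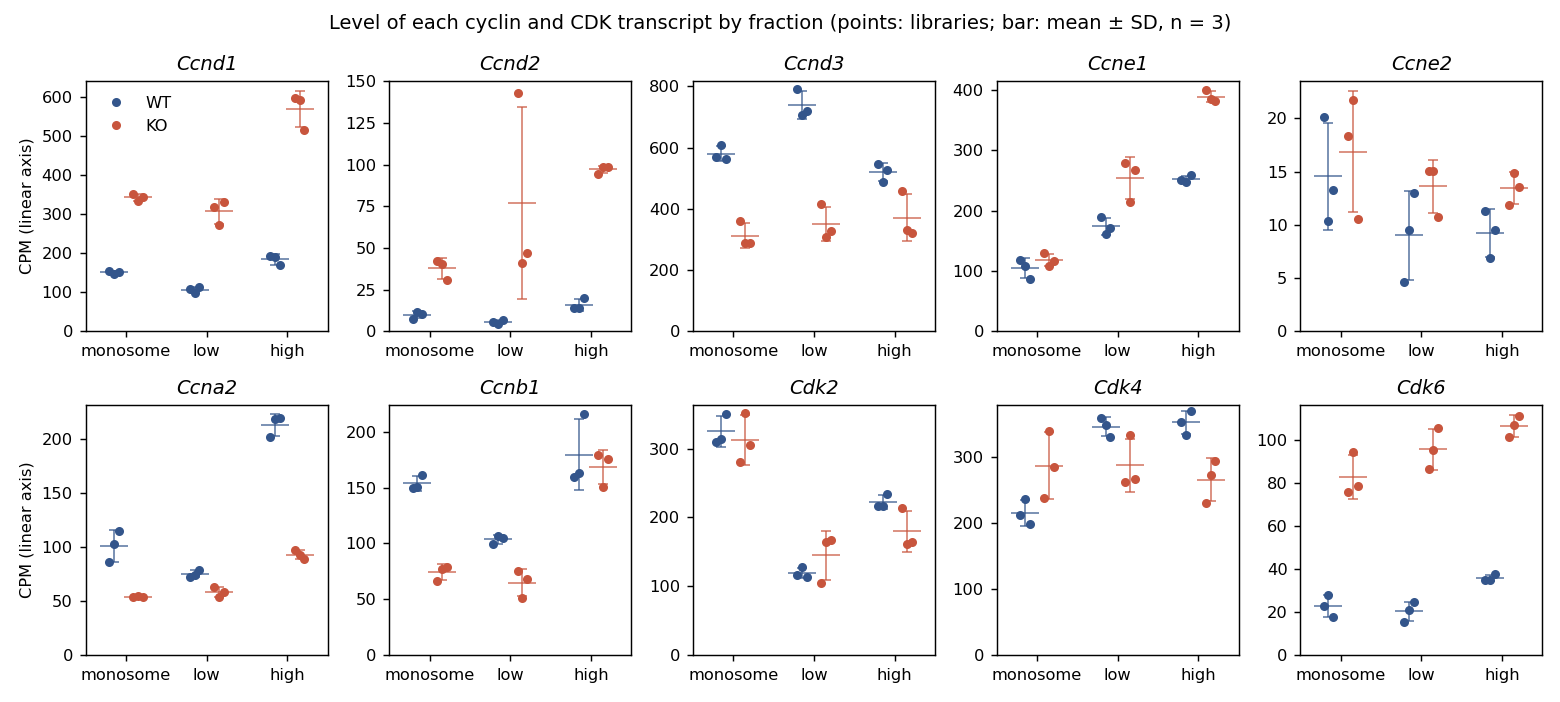
Level of each of the 10 genes in CPM (linear axis from 0) in monosomes, low polysomes and high polysomes of WT (blue) and Dgcr8 KO (red) ESCs. Points are libraries and bars the mean ± SD (n = 3). Ccnd1, Ccnd2 and Cdk6 are higher in every KO library than in any WT library of the same fraction, and the Ccnd2 point at 143 CPM is the KO low polysome library of replicate 1.

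The first comparison was KO against WT within each fraction. Calls required an adjusted p below 0.05 together with a log2 change above 1 in either direction. In monosomes 4 of the 10 genes were called, Ccnd1, Ccnd2 and Cdk6 higher and Ccnb1 lower, where 18.1% of all genes tested were called, 8.43% higher and 9.63% lower. In low polysomes the same 3 genes were called higher and Ccnd3 lower, against 25.0% of all genes, 11.4% higher and 13.6% lower. In high polysomes the same 3 were higher and Ccna2 lower, against 33.1% of all genes, 15.1% higher and 17.9% lower. By the adjusted p alone 7, 7 and 8 of the 10 genes passed in the 3 fractions, against 37.3%, 52.3% and 60.7% of all genes. The 10 genes had median log2 changes of 0.17, 0.40 and 0.24 from the lightest to the heaviest fraction, and all genes tested -0.05, 0.00 and -0.08.

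The D-type cyclins, the CDK4 and CDK6 partners of G1, moved in both directions. Ccnd1 (ENSMUSG00000070348, chromosome 7, 144929931 to 144939925, minus strand) was read at 155, 146 and 151 CPM in the WT monosome libraries and at 353, 335 and 344 CPM in those of the KO. Its low polysome values were 107, 97.9 and 114 CPM in WT and 318, 272 and 331 CPM in KO cells. In high polysomes its 3 WT libraries were at 193, 191 and 169 CPM and its KO libraries at 598, 594 and 516 CPM. In each fraction the lowest KO library was above the highest WT library, and the 6 groups did not overlap in the order KO high, KO monosome, KO low, WT high, WT monosome, WT low. Ccnd1 rose 2.27-fold in monosomes (log2 change 1.18, SE 0.12, adjusted p = 3e-10), 2.89-fold in low polysomes (1.53, SE 0.12, adjusted p = 2.11e-14) and 3.08-fold in high polysomes (1.62, SE 0.11, adjusted p = 8.67e-16).

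Ccnd2 (ENSMUSG00000000184, chromosome 6, 127125162 to 127152193, minus strand), which encodes cyclin D2, was near the bottom of the measured range in WT cells. It had 11, 18 and 12 reads in WT monosomes, 16, 16 and 23 in low polysomes and 35, 38 and 62 in high polysomes. In KO cells the reads were 76, 104 and 78 in monosomes and 286, 317 and 428 in high polysomes. No KO library overlapped the WT libraries of its fraction. Monosome levels were 9.86 ± 2.22 CPM for WT and 37.7 ± 6.28 CPM for KO cells, a log2 change of 1.90 (SE 0.48, adjusted p = 0.00188). High polysome levels were 15.7 ± 3.51 and 97.1 ± 2.23 CPM, a log2 change of 2.62 (SE 0.30, adjusted p = 8.74e-10) or 6.15-fold. The KO low polysome libraries spread widely. They were at 143, 41.0 and 46.8 CPM against 5.64, 4.46 and 6.92 CPM in WT cells, and the first of these is the library that stood apart. The log2 change with it was 3.51 (SE 0.42, adjusted p = 2.66e-09) and without it 2.95 (SE 0.27, adjusted p = 4.3e-13), so Ccnd2 was called either way. The part of the embryonic transcripts in the value of that library was not tested.

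Ccnd3 (ENSMUSG00000034165, chromosome 17, 47505051 to 47599691, plus strand), the third D-type cyclin, went the other way. It was at 569.9, 609 and 563 CPM in WT monosomes and 359, 287 and 289 CPM in KO monosomes. Low polysome values were 792, 707 and 719.8 CPM in WT and 415, 309 and 327 CPM in KO cells. High polysome values were 545, 488 and 527 CPM in WT and 459, 332 and 319.9 CPM in KO cells. All KO libraries were below all WT libraries of the same fraction, and the 3 KO fractions overlapped each other. Ccnd3 changed by -0.91 on the log2 scale in monosomes (SE 0.13, adjusted p = 4.01e-07), -1.09 in low polysomes (SE 0.12, adjusted p = 8.37e-10) and -0.51 in high polysomes (SE 0.12, adjusted p = 0.000502), so that the fold threshold was passed in low polysomes alone. Without KO replicate 1 the monosome value was -1.01 and was called as well.

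Of the 2 kinases that bind D-type cyclins, Cdk6 was higher in KO cells in every fraction and Cdk4 was not. Cdk6 (ENSMUSG00000040274, chromosome 5, 3341485 to 3531008, plus strand) was at 22.8, 27.7 and 17.7 CPM in WT monosomes and 75.6, 94.4 and 78.3 CPM in KO monosomes. Its low polysome libraries were at 15.5, 20.9 and 24.4 CPM in WT and 86.4, 95.2 and 105 CPM in KO cells. In high polysomes it was at 34.7, 35.0 and 37.6 CPM in WT and 101, 107 and 111 CPM in KO cells. The groups of the 2 genotypes did not overlap in any fraction, while neighbouring KO fractions did. Cdk6 rose 3.58-fold in monosomes (log2 change 1.84, SE 0.21, adjusted p = 3.02e-09), 4.71-fold in low polysomes (2.24, SE 0.16, adjusted p = 8.63e-15) and 2.96-fold in high polysomes (1.57, SE 0.15, adjusted p = 6.35e-12). With 20 to 484 reads per library it was read less deeply than Cdk4, which had 224 to 1282.

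Cdk4 (ENSMUSG00000006728, chromosome 10, 127063534 to 127067920, plus strand) was at 212, 237 and 198 CPM in WT monosomes and 238, 339 and 285 CPM in KO monosomes. Low polysome libraries read 359, 348 and 331 CPM in WT and 262, 334 and 267 CPM in KO cells. High polysome libraries read 353, 334 and 371 CPM in WT and 231, 272 and 295 CPM in KO cells. KO libraries were thus above WT in monosomes, overlapped WT in low polysomes and were below WT in high polysomes. The log2 change of Cdk4 was 0.40 in monosomes (SE 0.13, adjusted p = 0.0147) and -0.41 in high polysomes (SE 0.12, adjusted p = 0.004), with -0.27 in low polysomes (SE 0.12, adjusted p = 0.0569). Near its 3′ end, 3.5% of the 50-base stretches of the transcript also occur in other annotated genes, and reads lying wholly in them were not counted.

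The E-type cyclins, partners of CDK2 at the start of S phase, did not pass the fold threshold. Ccne1 (ENSMUSG00000002068, chromosome 7, 38097984 to 38107534, minus strand) was at 119, 108 and 86.6 CPM in WT and 129, 108 and 117 CPM in KO monosomes, which overlapped. It was read at 189, 162 and 171 CPM in WT and 279, 214 and 268 CPM in KO low polysomes, and in high polysomes at 251, 248 and 259 CPM in WT and 399, 385 and 382 CPM in KO cells. In both polysome fractions all KO libraries were above all WT libraries. Ccne1 rose 1.46-fold in low polysomes (log2 change 0.54, SE 0.12, adjusted p = 0.000184) and 1.54-fold in high polysomes (0.62, SE 0.12, adjusted p = 1.3e-05), while the monosome value was 0.17 (SE 0.14, adjusted p = 0.377).

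Ccne2 (ENSMUSG00000028212, chromosome 4, 11191351 to 11204779, plus strand), which encodes cyclin E2, had the fewest reads of the 10 genes, 13 to 59 per library. It was at 20.1, 10.3 and 13.3 CPM in WT and 18.3, 21.7 and 10.6 CPM in KO monosomes, and at 4.58, 9.48 and 12.9 CPM in WT and 15.1, 15.1 and 10.8 CPM in KO low polysomes. In high polysomes the values were 11.3, 6.85 and 9.55 CPM for WT and 11.9, 14.9 and 13.6 CPM for KO cells. The genotypes overlapped in monosomes and low polysomes and were barely apart in high polysomes. Fitted log2 changes were 0.17 (95% confidence interval -0.50 to 0.84) in monosomes, 0.63 (0.04 to 1.23, adjusted p = 0.0673) in low polysomes and 0.56 (-0.04 to 1.16, adjusted p = 0.0979) in high polysomes. At this depth no difference was detectable for Ccne2, and its intervals reach 1.23 on the log2 scale.

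Cdk2 (ENSMUSG00000025358, chromosome 10, 128697939 to 128705031, minus strand), the kinase of E-type and A-type cyclins, was close to WT in KO cells. It was at 309, 314 and 351 CPM in WT and 280.2, 351 and 305 CPM in KO monosomes, and at 116, 128 and 114 CPM in WT and 104, 164 and 167 CPM in KO low polysomes. In high polysomes it was at 216, 216 and 233 CPM in WT and 213, 161 and 164 CPM in KO cells. The groups overlapped in the first pair of fractions and not in high polysomes, where the closest libraries were at 216 and 213 CPM. Cdk2 had log2 changes of -0.06 (95% confidence interval -0.34 to 0.22), 0.25 (-0.03 to 0.54) and -0.32 (-0.60 to -0.04) from the lightest to the heaviest fraction, and the last passed limma's adjusted p (0.041).

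Of the A-type and B-type cyclins, Ccna2 was lower in KO cells in all 3 fractions and Ccnb1 in monosomes and low polysomes. Ccna2 (ENSMUSG00000027715, chromosome 3, 36564865 to 36572150, minus strand), which encodes cyclin A2, was at 85.7, 103 and 115 CPM in WT and 53.9, 54.8 and 53.7 CPM in KO monosomes. Its low polysome values were 72.3, 74.5 and 78.9 CPM in WT and 63.0, 53.8 and 58.1 CPM in KO cells. In high polysomes it was at 202, 219 and 219 CPM in WT and 97.5, 92.6 and 88.7 CPM in KO cells. All KO libraries were below all WT libraries in each fraction. Ccna2 was 1.84-fold lower in monosomes (log2 change -0.88, SE 0.14, adjusted p = 4.55e-06), 1.29-fold lower in low polysomes (-0.37, SE 0.13, adjusted p = 0.0141) and 2.30-fold lower in high polysomes (-1.20, SE 0.12, adjusted p = 1.29e-11). Without WT replicate 1 the monosome value was -1.01 and was called as well.

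Ccnb1 (ENSMUSG00000041431, chromosome 13, 100778650 to 100786570, minus strand), which encodes the mitotic cyclin B1, was at 149, 150.4 and 162 CPM in WT and 66.2, 77.3 and 79.1 CPM in KO monosomes. In low polysomes the WT libraries were at 99.1, 107 and 105 CPM and the KO libraries at 75.0, 51.3 and 68.3 CPM. High polysome values were 159.9, 163 and 216 CPM for WT and 179.5, 151.0 and 175 CPM in KO cells. The genotypes were apart in monosomes and low polysomes and overlapped in high polysomes. Ccnb1 was 2.06-fold lower in monosomes (log2 change -1.04, SE 0.15, adjusted p = 3.95e-07) and 1.62-fold lower in low polysomes (-0.69, SE 0.14, adjusted p = 6.26e-05), while its high polysome value was -0.09 (SE 0.13, adjusted p = 0.581). The monosome value lay at the fold threshold, and without KO replicate 1 or KO replicate 2 it was -0.97 or -0.999 and was not called. The call was also lost with total counts (-0.94) and with all genes with a count (-0.97).

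**Figure D2:**
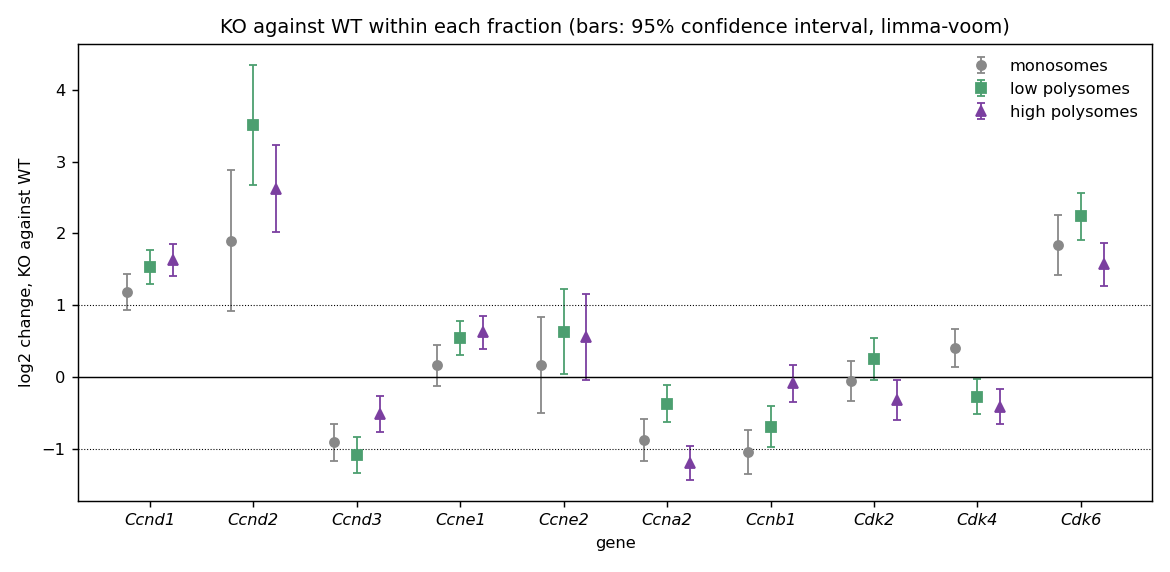
Log2 change of each gene in KO against WT cells in monosomes (grey circles), low polysomes (green squares) and high polysomes (purple triangles), with 95% confidence intervals from limma-voom. The dotted lines mark the fold threshold. Ccnd1, Ccnd2 and Cdk6 lie above the upper line in all 3 fractions, Ccnd2 at 3.51 in low polysomes with the library that stood apart and 2.95 without it, and Ccnb1 rises from -1.04 in monosomes to -0.09 in high polysomes.

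The distribution of each mRNA within a genotype was compared next. The translation level was taken as the log2 ratio of high polysomes to monosomes, so a positive value means a larger share of the reads in the heavy fraction. In WT cells 2 of the 10 genes were called, Ccne1 and Ccna2, both with a positive level, where 30.1% of all genes were called. In KO cells 3 were called, Ccne1, Ccnd2 and Ccnb1, all positive, where 43.0% of all genes were called. The median level of the 10 genes was 0.46 in WT and 0.54 in KO cells, and that of all genes tested -0.01 and -0.07.

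Ccne1 had the highest translation level of the 10 genes in both genotypes. Its 3 gradients gave 1.08, 1.20 and 1.57 in WT and 1.62, 1.83 and 1.70 in KO cells, with fitted levels of 1.27 (SE 0.14, adjusted p = 1.89e-10) and 1.73 (SE 0.12, adjusted p = 1.02e-15). Ccna2 was at 1.23, 1.09 and 0.93 in the WT gradients and 0.85, 0.75 and 0.72 in the KO gradients. Its fitted level was 1.09 (SE 0.13, adjusted p = 1.85e-09) in WT and 0.77 (SE 0.13, adjusted p = 3.07e-06) in KO cells, under the fold threshold in the latter. Ccnd2 was fitted at 0.66 (SE 0.51, adjusted p = 0.283) in WT and 1.39 (SE 0.25, adjusted p = 6.89e-06) in KO cells.

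Cdk2 was the one gene of the 10 whose mRNA was lower in high polysomes than in monosomes by the adjusted p in both genotypes. Its gradients gave -0.52, -0.54 and -0.59 in WT and -0.39, -1.12 and -0.89 in KO cells, with fitted levels of -0.55 (SE 0.14, adjusted p = 0.00105) and -0.81 (SE 0.14, adjusted p = 1.96e-06). Without KO replicate 1 the KO level was -1.01 and passed the fold threshold. The mean Cdk2 level was lowest in low polysomes, at 119 ± 7.75 CPM in WT and 145 ± 35.3 CPM in KO cells, against 325 ± 22.7 and 312 ± 36.2 CPM in monosomes. High polysomes were at 222 ± 9.98 CPM in WT and 179 ± 29.3 CPM in KO cells, and in KO cells their libraries overlapped those of low polysomes. Ccne2 had levels of -0.65 (95% confidence interval -1.36 to 0.07) and -0.25 (-0.80 to 0.29), which did not pass.

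**Figure D3:**
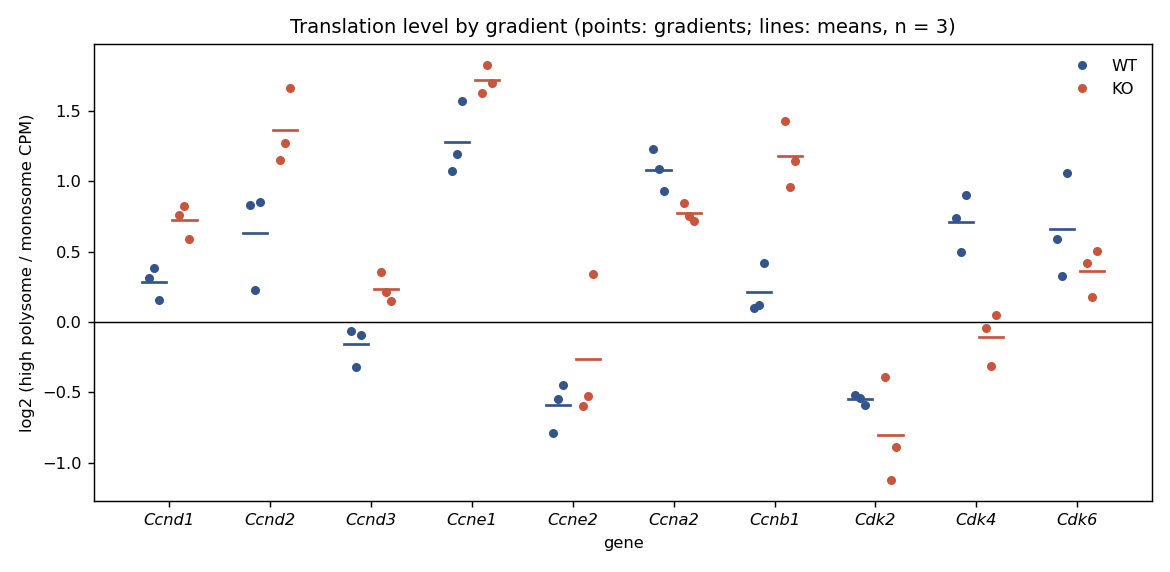
Translation level of each gene, the log2 ratio of its CPM in high polysomes to that in monosomes of the same gradient, for WT (blue) and KO (red) cells. Points are gradients and lines their means (n = 3). KO gradients lie above all WT gradients for Ccnd1, Ccnd2, Ccnd3, Ccne1 and Ccnb1 and below them for Ccna2 and Cdk4. Of these, Ccnd2, Ccnd3, Ccne1 and Ccna2 did not pass the adjusted p for the change between genotypes. How many of all genes separate in this way was not counted. Cdk2 lies below 0 in all 6 gradients.

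The change in translation level between genotypes is the interaction of genotype and fraction, and asks whether KO cells load a message onto heavy polysomes differently. None of the 10 genes was called, where 15.1% of all genes tested were called. By limma's adjusted p alone 3 passed, Ccnb1 and Ccnd1 higher and Cdk4 lower, against 28.2% of all genes. At an unadjusted p under 0.05, for which no share of all genes was taken, 5 of the 10 genes passed. The shares above belong to stricter thresholds and are no comparison for that count. edgeR's quasi-likelihood test and DESeq2 also called none at the fold threshold. The median change was 0.40 for the 10 genes and 0.01 for all genes tested.

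For Ccnb1 the 3 gradients gave 0.10, 0.12 and 0.42 in WT and 1.43, 0.96 and 1.14 in KO cells. All KO gradients were above all WT gradients. The change was 0.96 (SE 0.20, 95% confidence interval 0.56 to 1.35, adjusted p = 0.000237), just under the fold threshold. Without WT replicate 3 or KO replicate 2 it was 1.06 or 1.03 and was called. The adjusted p stayed under 0.05 in all 16 other settings run. Cyclin B1 mRNA was thus lower in KO monosomes and low polysomes and close to WT in high polysomes.

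For Cdk4 the gradients gave 0.74, 0.50 and 0.90 in WT and -0.04, -0.32 and 0.05 in KO cells. All KO gradients were below all WT gradients. The change was -0.82 (SE 0.18, 95% confidence interval -1.18 to -0.45, adjusted p = 0.000618), and its adjusted p stayed under 0.05 in all 16 other settings run. Part of it was already present between monosomes and low polysomes, where the change was -0.68 (SE 0.18, adjusted p = 0.00873). The latter lost its adjusted p without WT replicate 1 (-0.63, adjusted p = 0.0655) or KO replicate 3 (-0.63, adjusted p = 0.0501).

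For Ccnd1 the gradients gave 0.32, 0.38 and 0.16 in WT and 0.76, 0.82 and 0.59 in KO cells, again without overlap. The change was 0.44 (SE 0.16, 95% confidence interval 0.11 to 0.77, adjusted p = 0.0411). This is the least stable of the 3, since the adjusted p was above 0.05 in 8 of the 16 other settings, among them leaving out any WT replicate (0.37 to 0.46, adjusted p 0.0972 to 0.163), KO replicate 1 (0.42, adjusted p = 0.0749) or KO replicate 2 (0.35, adjusted p = 0.122). Scaled to total counts it was 0.11 (adjusted p = 0.659). The other genes had adjusted p-values of 0.057 to 0.555. Ccne1 changed by 0.46 (95% confidence interval 0.09 to 0.82), Ccnd3 by 0.40 (0.03 to 0.76), Ccne2 by 0.39 (-0.51 to 1.29) and Ccnd2 by 0.72 (-0.43 to 1.88). Cdk2, Cdk6 and Ccna2 had values of -0.26 (-0.66 to 0.13), -0.27 (-0.79 to 0.25) and -0.32 (-0.69 to 0.05).

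The same question was asked of the neighbouring fractions. For the low polysome to monosome ratio none of the 10 genes was called, where 5.03% of all genes were called, and by limma's adjusted p alone Cdk4 passed, where 11.4% of all genes did. At an unadjusted p under 0.05, again without a share of all genes, 5 of the 10 passed. edgeR and DESeq2 each called 1, Ccnd2. The Ccnd2 change was 1.61 (SE 0.64, adjusted p = 0.0988), and its KO gradients gave 1.74, 0.02 and 0.60 against -0.35, -1.25 and -0.57 in WT cells. The gradient at 1.74 holds the library that stood apart. With the gradient as a replicate block the change was 1.67 and called (adjusted p = 0.0324), without that library 1.05 and not called (adjusted p = 0.0859), and without WT replicate 2 it was 1.21 (adjusted p = 0.47).

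For the high to low polysome ratio none of the 10 genes was called, where 5.18% of all genes were called. At limma's adjusted p alone 5 passed, Ccnd3 and Ccnb1 higher and Ccna2, Cdk6 and Cdk2 lower, where 17.8% of all genes did. The same 5 were those with an unadjusted p under 0.05, again without a share of all genes. edgeR and DESeq2 called none at the fold threshold. Ccna2 had the clearest change. Its gradients gave 1.47, 1.55 and 1.47 in WT and 0.62, 0.77 and 0.61 in KO cells, a change of -0.83 (SE 0.17, adjusted p = 0.000638) that passed in all 16 other settings by the adjusted p. Ccnd3 moved from -0.54, -0.53 and -0.45 in the WT gradients to 0.15, 0.10 and -0.03 in the KO gradients, a change of 0.57 (SE 0.17, adjusted p = 0.018). The adjusted p was 0.0746 without WT replicate 1 and 0.0701 without WT replicate 2.

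Ccnb1 changed by 0.61 (SE 0.19, adjusted p = 0.0214) in the high to low polysome ratio, with adjusted p-values of 0.0917, 0.101 and 0.0649 without WT replicate 1, WT replicate 2 and KO replicate 3. With total counts it was 0.41 (adjusted p = 0.119) and the Ccnd3 change 0.38 (adjusted p = 0.121). Cdk6 changed by -0.67 (SE 0.22, adjusted p = 0.0298). Its adjusted p was above 0.05 in 7 of 16 other settings, among them the fit with the gradient as a block (-0.66, adjusted p = 0.0645) and those without WT replicate 1 (0.171), WT replicate 2 (0.095), KO replicate 2 (0.0569) or KO replicate 3 (0.0929). Cdk2 changed by -0.57 (SE 0.20, adjusted p = 0.0377), but its gradients overlapped, at 0.90, 0.75 and 1.03 in WT and 1.03, -0.02 and -0.02 in KO cells. For Cdk2, 9 of 16 other settings gave an adjusted p above 0.05, among them those without any WT replicate (0.0989 to 0.15), KO replicate 2 (0.245) or KO replicate 3 (0.273).

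Changes in translation level moved with coding length across all genes. The 10 genes were not chosen by coding length, but they were chosen with earlier results of these data known. Protein-coding genes were divided into deciles by the length of their coding sequence. The median change was -0.94 in decile 1 (75 to 522 nt), -0.34 in decile 3 (735 to 948 nt), -0.15 in decile 4 (951 to 1140 nt), -0.03 in decile 5 (1143 to 1362 nt) and 0.62 in decile 10. The 10 genes fall in deciles 3 to 5, with coding lengths of 867 nt for Ccnd2 to 1290 nt for Ccnb1. Ccnd1, Ccnd2 and Ccnd3, which encode proteins of 295, 289 and 292 residues, lay 0.78, 1.06 and 0.74 above the median of their decile, and Ccnb1 lay 0.99 above that of its own. Cdk4 lay 0.48 below its median, and 21.4% of the 1172 genes in its decile had a lower value. Cdk2 and Cdk6 were within 0.12 of theirs. The part of coding length in these values was not tested.

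**Figure D4:**
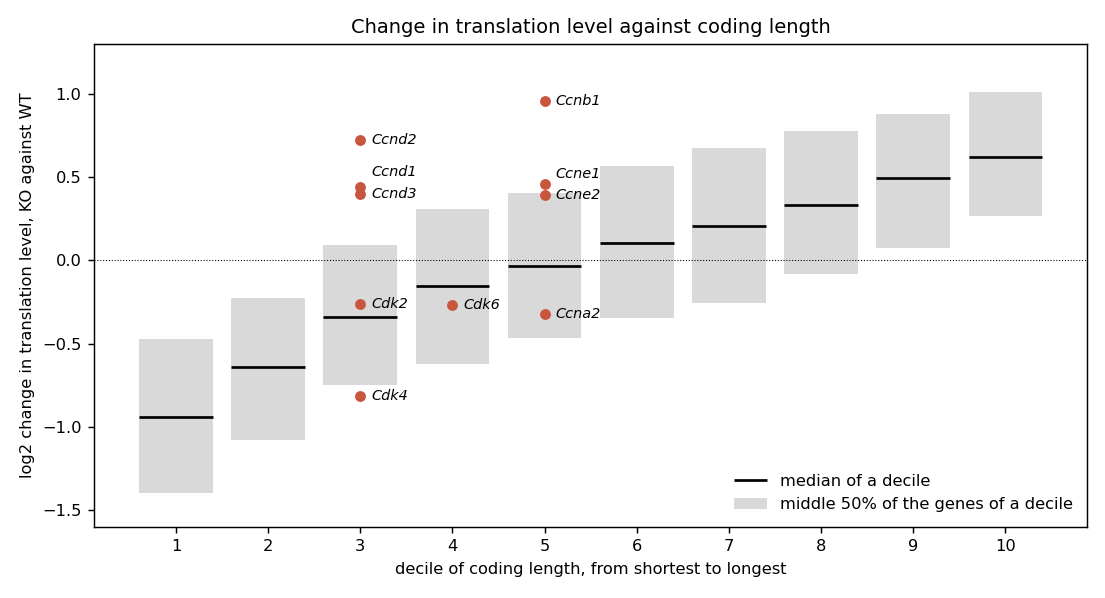
Change in translation level, KO against WT on the log2 scale, by decile of coding length for the protein-coding genes tested. Grey bars span the middle 50% of the genes of each decile, black lines are medians and red points are the 10 cyclins and CDKs. The medians climb from -0.94 to 0.62, and Ccnd2, Ccnd1, Ccnd3, Ccnb1 and Ccne1 lie above the bars of their deciles while Cdk4 lies below its bar.

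Genes with the most similar profile over the 18 libraries were looked up among 9010 other genes with a mean of 10 CPM or more, as a description, since all points share libraries and fraction effects. Ccnd1 was most like Dpysl3 and Nefl (Pearson's r of log2 CPM, 0.98 for both), Ccnd2 like Gtf2i and Slc27a2 (0.95 for both) and Ccnd3 like Mtss1l (0.93) and Gpx3 (0.91). Ccne1 was most like Pcsk6 (0.99) and Ptgfrn (0.98), and Ccna2 like Aurka, a mitotic kinase gene, and Rpf2 (0.97 and 0.96). Ccnb1 was most like Shmt2 (0.97) and Eif3d (0.96), Cdk2 like Ldb1 (0.95) and Nob1 (0.94), Cdk4 like Ptpa (0.93) and H1fx (0.90), and Cdk6 like Tspan1 (0.98) and Lgals3 (0.97). Ccne2 had no close profile, with Nefm and Wdr47 at 0.76.

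The remaining genes of the pathway were described by lists, and their changes in translation level were not set against coding length. The counts below stand beside the shares of all genes tested that were called, 15.1% for the change in translation level and 18.1%, 25.0% and 33.1% for KO against WT from the lightest to the heaviest fraction. Of 19 other cyclins, 17 were tested. None was called for the change in translation level (median -0.04) or in either polysome fraction, and Ccng2, an unconventional cyclin linked to cell cycle arrest, was the 1 called in monosomes. It had 8, 21 and 21 reads in KO and 27, 30 and 41 in WT monosomes, a log2 change of -1.66 (SE 0.35). No other cyclin was called higher in any fraction, and whether the list differs from the D-type cyclins was not tested.

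Of 15 other CDKs, 14 were tested. For the change in translation level 1 was called higher and 2 lower, and in low and high polysomes 1 higher with 3 and 2 lower, or 3, 4 and 3 of 14 called in all beside 15.1%, 25.0% and 33.1% of all genes. Cdk19, a kinase of the Mediator complex, was higher by 2.29 (SE 0.20) in high polysomes and by 1.02 (SE 0.14) in low polysomes. Its translation level rose by 1.63 (SE 0.26). Cdk10 was lower by -1.12 (SE 0.22) in low and -1.43 (SE 0.23) in high polysomes, and Cdk20 by -1.10 (SE 0.28) and -1.23 (SE 0.36). Cdk20 had few reads, 17, 21 and 31 in KO and 42, 45 and 55 in WT low polysomes. In high polysomes it had 14, 9 and 16 reads in KO and 29, 18 and 28 in WT cells. Cdk5, an atypical kinase known from neurons, fell in translation level by 1.36 (SE 0.22), and Cdk10 fell by 1.07 (SE 0.31). The low polysome call of Cdk19 lay at the fold threshold and was lost with DESeq2 (0.99) and without WT replicate 1 (0.92), WT replicate 2 (0.98), KO replicate 2 (0.99) or KO replicate 3 (0.97), that of Cdk20 without KO replicate 1 (-0.94), and the translation level call of Cdk10 without WT replicate 1 (-0.69).

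All 7 CDK inhibitors were tested. In high polysomes 1 was called higher and 4 lower, where 33.1% of all genes were called and 17.9% lower, and in low polysomes 1 higher and 1 lower, where 25.0% of all genes were called. The median of -1.88 in high polysomes is the value of Cdkn2d and rests on the place of Cdkn1c, Cdkn2b and Cdkn2c below it, which had few reads. Cdkn1a, the p21 inhibitor of CDK2, had 1542, 1536 and 1402 reads in WT and 3458, 3282 and 3791 in KO low polysomes. Its log2 change was 1.17 (SE 0.11) there and 1.22 (SE 0.11) in high polysomes. Cdkn2d, an inhibitor of CDK4 and CDK6, fell in translation level by 1.36 (SE 0.24). For these 3 inhibitors the reads are given and no fold. In high polysomes Cdkn1c had 11, 8 and 4 reads in KO and 19, 23 and 22 in WT cells, and Cdkn2b 8, 2 and 3 against 13, 12 and 11. In low polysomes Cdkn2c had 2, 0 and 5 reads in KO and 14, 14 and 20 in WT cells. In monosomes Cdkn2b was called higher with 5, 7 and 10 reads in KO and 2, 0 and 0 in WT cells, and was lost without WT replicate 2 (adjusted p = 0.0938), WT replicate 3 (0.0883) or KO replicate 3 (0.0502) and with DESeq2 (0.0526). It was also called lower in translation level.

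The RB and E2F family list holds the RB proteins that D-type cyclin kinases phosphorylate, the E2F factors and their partners. Of its 13 genes, 2 were called higher and 3 lower in high polysomes, 2 and 2 in low polysomes, and 1 higher in monosomes, near the shares of all genes in the polysome fractions and below it in monosomes. Rbl2, which encodes p130, was higher by 1.25 (SE 0.33), 1.21 (SE 0.23) and 1.88 (SE 0.26) in monosomes, low and high polysomes. Its WT reads were few, 12, 9 and 11 in monosomes, 20, 34 and 37 in low and 15, 19 and 19 in high polysomes. Rbl1, which encodes p107, was higher by 1.11 (SE 0.16) in high polysomes and Rb1 by 1.02 (SE 0.33) in low polysomes. Rb1 also had few reads there, 33, 31 and 33 in KO and 19, 18 and 10 in WT cells. The Rbl1 call was lost without WT replicate 3 (0.98) and with total counts (0.89), and the Rb1 call without WT replicate 3 (0.71), KO replicate 1 (0.98) or KO replicate 2 (0.99), and with edgeR (0.97) or DESeq2 (0.95). E2f1 was lower by -1.48 (SE 0.13) in low polysomes and had a value of 0.14 (SE 0.15) in high polysomes. E2f8 was lower by -1.19 (SE 0.20) in high polysomes. The E2F partner Tfdp1 was lower by -1.40 (SE 0.18) in low and -1.18 (SE 0.18) in high polysomes, and Tfdp2 fell in translation level by 1.25 (SE 0.22).

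Of 9 CDK activators and brakes, 2 were called lower in low polysomes and 3 in high polysomes, with 1 called higher in both, or 3 and 4 of 9 called beside 25.0% and 33.1% of all genes. The small CDK-binding proteins Cks1b and Cks2 were lower by -1.97 (SE 0.11) and -1.56 (SE 0.27) in low polysomes and by -1.38 (SE 0.13) and -2.41 (SE 0.40) in high polysomes. Cks2 had few reads, 43, 19 and 24 in KO and 70, 62 and 104 in WT low polysomes. In high polysomes it had 10, 15 and 7 reads in KO and 28, 53 and 51 in WT cells. The inhibitory kinase gene Pkmyt1 was higher by 1.09 (SE 0.18) in low and 1.35 (SE 0.17) in high polysomes. In translation level Pkmyt1 rose by 1.20 (SE 0.25) and Cks2 fell by 2.01 (SE 0.52). The Pkmyt1 translation call was lost without WT replicate 2 (0.95) or KO replicate 3 (0.98) and with total counts (0.87), and its low polysome call without WT replicate 3 (0.99), and the Cks2 translation call was lost without KO replicate 3 (-1.45, adjusted p = 0.0683). Of 11 subunits of the ligases that mark cyclins and their inhibitors for degradation, 1 was called higher and 1 lower in each polysome fraction, or 2 of 11 beside 25.0% and 33.1% of all genes. Skp2 was higher by 1.13 (SE 0.14) in low and 1.27 (SE 0.13) in high polysomes. Rbx1 was lower by -1.10 (SE 0.12) and -1.20 (SE 0.14), and its translation level fell by 1.43 (SE 0.19). All called values in these lists passed limma's adjusted p of 0.05 with 3 libraries per group. The high polysome value of E2f1 was not called and did not pass.

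**Figure D5:**
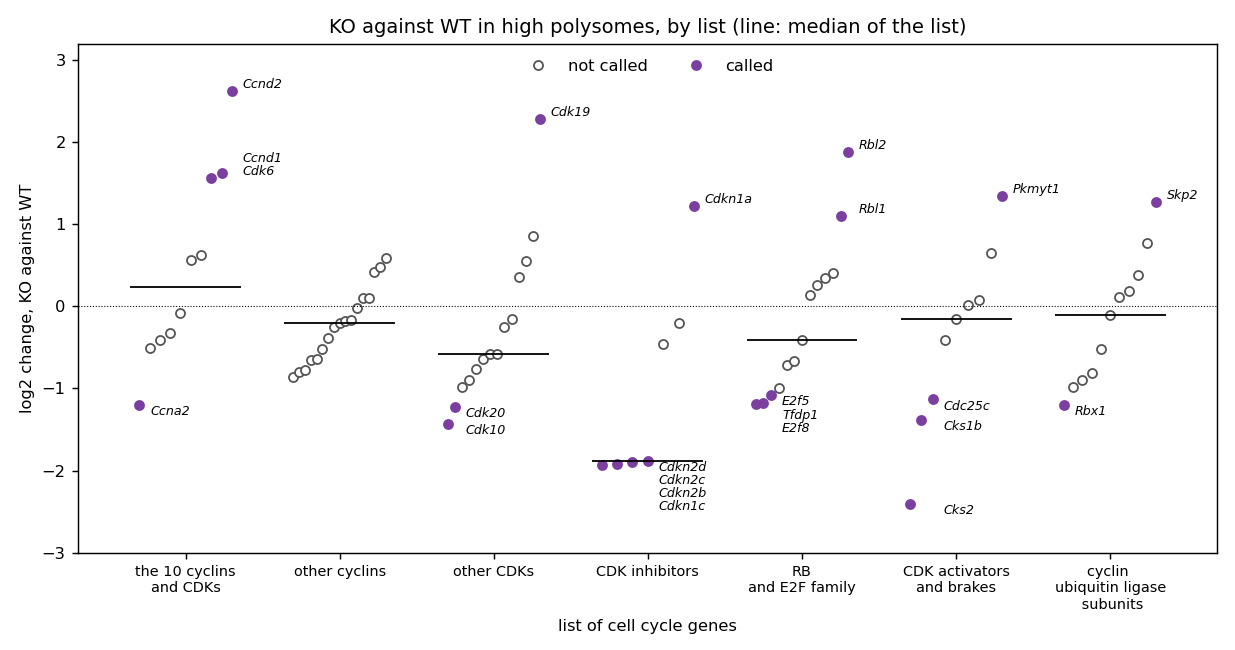
Log2 change in KO against WT high polysomes for the 10 cyclins and CDKs and for 6 lists of related cell cycle genes. Filled points were called, open points were not, and black lines are list medians. Among the CDK inhibitors Cdkn1a alone lies above 1, and 3 of the 4 called lower (Cdkn1c, Cdkn2b and Cdkn2c) had few reads. No gene of the list of other cyclins was called.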

How the data were processed

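Polysome fractions of 2 ESC genotypes were sequenced by QuantSeq 3′ end counting, 18 libraries in 6 groups of 3. The authors deposited raw counts per gene, made by trimming with cutadapt (1.14), alignment to mm10 with STAR (2.5.3a) and strand-specific counting with featureCounts (1.5.3), versions per the labels. Reads mapping to several loci were dropped, which lowers genes with near-identical copies, and no molecular identifiers were stated, so PCR copies were counted as reads.

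Testing was limited to the 12851 genes that reached 3 CPM in 3 or more libraries, with limma-voom (limma 3.58.1, R 4.3.3) on TMM-scaled counts, 1 mean per group, with two-sided tests and Benjamini-Hochberg adjustment over all genes tested. All adjusted p-values in the text come from this fit unless another tool is named. Ratios per gradient are of log2 CPM with a prior count of 2. edgeR 4.0.16 and DESeq2 1.42.0 were alternatives. Fractions with the same number within a genotype are the same gradient by the protocol, and their deviations from the group means correlated at 0.03 to 0.14 over 18 pairs. WT and KO libraries share only a number.

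Transcript features were taken from GENCODE M21 (1 principal transcript per gene) and microRNAs from RefSeq. The 10 genes and the lists were chosen with earlier results of these data known. Named are the 10 genes, Dgcr8, for each list up to 2 called genes with the largest change in each direction for 4 comparisons, and 2 genes of most similar profile. The ERCC spike-ins (0.00052 to 0.00215% of reads) entered neither library sizes nor tests.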

Additional observations from a re-analysis of the deposited data

Results flagged for a closer look

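For 9 results the KO to WT difference was not the same in 2 fractions, by limma's interaction test at an adjusted p under 0.05, with no minimum size. Of all genes tested, 28.2% passed this test between high polysomes and monosomes. The shares were 11.4% between low polysomes and monosomes and 17.8% between high and low polysomes. Between high polysomes and monosomes the log2 change of KO against WT was more positive in high polysomes for Ccnb1 (0.96, from -1.04 to -0.09) and Ccnd1 (0.44, from 1.18 to 1.62) and more negative for Cdk4 (-0.82, from 0.40 to -0.41). Between low polysomes and monosomes it differed for Cdk4 (-0.68). Between high and low polysomes it differed for Ccnd3 (0.57), Ccnb1 (0.61), Ccna2 (-0.83), Cdk6 (-0.67) and Cdk2 (-0.57). None exceeded 1 on the log2 scale. The values for Ccnb1 and Cdk4 between high polysomes and monosomes and for Ccna2 between high and low polysomes kept an adjusted p under 0.05 in all 16 other settings run, and the remaining 6 lost it in 2 to 9 of them.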

How the results depend on the processing

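With the adjusted p alone and no fold threshold, 3 of the 10 genes passed for the change in translation level, where 28.2% of all genes did. For low polysome to monosome 1 passed, against 11.4% of all genes, and for high to low polysome 5, against 17.8%. KO against WT gave 7, 7 and 8 from the lightest to the heaviest fraction, against 37.3%, 52.3% and 60.7% of all genes. For the translation level itself 5 of the 10 genes passed in WT cells and 7 in KO cells. Of the 12851 genes tested, 3347 passed with a positive and 3597 with a negative level in WT cells. In KO cells 4136 were positive and 4565 negative. Most genes tested thus passed in each genotype, and the 5 and 7 do not stand out from them. Scaling to total counts shifted the all-gene median by -0.33 for the change in translation level, -0.13 for low polysome to monosome, -0.20 for high to low polysome, -0.22 for KO against WT in high polysomes and -0.25 for the KO translation level. It called 1 gene for the first, Cdk4 (-1.14), and 1 for high to low polysome, Ccna2 (-1.03). edgeR, DESeq2, limma-trend and the replicate block each called 1 gene for low polysome to monosome, Ccnd2 (1.83, 1.80, 1.51 and 1.67). The block changed no other call of the 10 genes. For KO against WT within a fraction it is no check of pairing, since WT and KO libraries share only a number. There the block took Dgcr8 in high polysomes to -0.98, under the fold threshold. Leaving out 1 gradient, or the KO low polysome library of replicate 1 alone (an alternative chosen after seeing the data), gave 0 to 1 genes for the change in translation level, 3 to 5 for KO against WT in monosomes and 3 to 4 for the translation level in KO cells, with no change in the other counts.

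Values near 0 changed sign. With total counts these were Ccnd1 (-0.10) and Ccne1 (-0.12) for high to low polysome, Cdk2 in monosomes (0.049), the translation level of Ccnd3 in KO cells (-0.0099) and Dgcr8 for low polysome to monosome (-0.023). With all genes with a count it was Cdk2 in monosomes (0.022), and with DESeq2 Ccne2 for high to low polysome (0.0019). Leaving out a gradient or that library gave ranges across 0 for Ccne2 in high to low polysome (-0.33 to 0.43), low polysome to monosome (-0.18 to 0.79) and monosomes (-0.029 to 0.51), for Ccnd1 (-0.023 to 0.23) and Cdk4 (-0.27 to 0.0061) in high to low polysome, for Cdk2 in monosomes (-0.10 to 0.015), Ccnb1 in high polysomes (-0.17 to 0.047), the translation level of Cdk4 in KO cells (-0.19 to 0.035) and Dgcr8 in low polysome to monosome (-0.12 to 0.22). None of these passed in the reported fit. Total counts also moved Ccnb1 in monosomes (-0.94) under the fold threshold, and the KO translation levels of Ccnb1 (0.93) under and Cdk2 (-1.06) over the fold threshold. Depth limits Ccne2 and WT Ccnd2 most.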
